A study of Mus musculus with 8 samples.

Results

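The E12 knockout was compared with the E12 wild type in cultured mouse cells labelled as vascular smooth muscle cells of the aorta, with 4 of the 8 libraries of the series: 2 labelled E12 WT and 2 labelled E12 KO. The 4 were chosen by their genotype labels. The other 4 libraries, of E47 WT and E47 KO cells, entered the fit to estimate the spread and served for a comparison of 10 single genes. Per the labels, cells of all groups were revived from frozen stocks and grown in culture dishes, with no treatment named. The sources used here do not give the strain, the age, the deleted sequence or the means of deletion. The labels also leave unsaid whether the pair of libraries of a genotype came from different cultures, clones or animals. The p-values therefore measure the spread between such pairs, which may be technical, and the effect of the genotype cannot be told apart from other differences between the E12 WT and E12 KO cell populations. In bulk RNA, fewer cells of a type and less RNA per cell cannot be told apart either.

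E12 and E47 are isoforms of E2A, a transcription factor encoded by Tcf3. E proteins have a basic helix-loop-helix domain, pair with one another or with tissue-specific partners, and bind the E-box, the DNA motif CANNTG. Id proteins have the helix-loop-helix but no DNA-binding region, and they keep E proteins off DNA. Vascular smooth muscle cells contract the vessel wall and make much of its collagen, elastin and proteoglycan, and in culture they lose part of the contractile machinery.

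Genes for RNA processing and for building the translation machinery were more often higher in the E12 knockout, and genes of the extracellular matrix, the secretory pathway, the integrins and cyclic nucleotide signalling were more often lower. Of 30 heterogeneous ribonucleoproteins (hnRNPs) and SR splicing proteins tested, 26 rose, and the median log2 change of the 30 was 0.34. Of 43 genes of the secretory pathway, 27 fell, with a median of -0.30. Over all 13992 genes tested, 21.9% passed the test as higher and 24.5% as lower in the knockout (edgeR quasi-likelihood test, Benjamini-Hochberg adjusted p under 0.05), with a median log2 change of -0.01. The genes of chromosomes 1 and 18 were shifted upward as a body and those of chromosome 9 downward, so counts are also given after the median change of each chromosome was taken out.

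Library totals in the E12 groups ran from 13909230 to 19532369 counts, and 3 counts in a library corresponded to 0.145 to 0.224 CPM, the count scaled to library size. CPM values are not scaled to gene length. Tcf3 itself measured 109 and 107 CPM in the wild type and 145 and 143 CPM in the knockout (log2 change 0.41, SE 0.0635, adjusted p = 8.6e-05), so both knockout libraries lay above both wild-type libraries, and a count per gene does not separate the E12 and E47 exons. Among smooth muscle markers, Acta2 was abundant at 1929 and 1978 CPM in the wild type and 1626 and 1649.6 CPM in the knockout, whereas Tagln, another defining contractile gene, was at 1.85 and 1.57 CPM in the wild type and 1.3 and 0.781 CPM in the knockout and did not pass the test. Myh11, the smooth muscle myosin, fell from 6.06 and 8.82 to 2.03 and 2.82 CPM. Of the 16 smooth muscle markers, 4 rose and 7 fell. Smtn rose from 111 and 116 to 124 and 132 CPM and Lmod1 from 39.7 and 39.5 to 49 and 45 CPM. The other 2 risen markers were Mylk, from 2.11 and 1.79 to 4.63 and 3.96 CPM, and Itga8, from 2.94 and 2.62 to 7.39 and 5.05 CPM. The summed level of the list, mostly Acta2, was 2165 and 2224 CPM in the wild type and 1857 and 1885 CPM in the knockout. Mesothelial markers were also high: they summed to 1663 and 1554 CPM in the wild type and 948 and 977 CPM in the knockout, and 5 of 8 tested fell and 2 rose. Among them, Upk3b measured 441 and 399 CPM in the wild type and 249 and 258 CPM in the knockout, Krt19 went from 409 and 364 to 164 and 178 CPM, and Msln, mesothelin, rose from 214 and 196 to 253 and 237 CPM. Of the defining contractile markers, Acta2 was thus well expressed, while Tagln and Myh11 were low in every E12 library, as was Cnn1, calponin, at 7.72 and 6.95 CPM in the wild type and 2.27 and 2.34 CPM in the knockout. Of 12 fibroblast markers tested, 5 rose and 4 fell. The summed level of the list was 21088 to 22412 CPM in the wild type and 24018 to 26738 CPM in the knockout. Most of that sum was the collagen gene Col1a1, which did not pass the test. It measured 13734 and 14808 CPM in the wild type and 14276 and 16419 CPM in the knockout. Macrophage markers summed to 1.56 to 6.13 CPM and lymphocyte markers to 1.34 to 2.24 CPM over the 4 libraries, with the defining Adgre1, C1qa, Cd3e and Cd3d without a count. Schwann cell markers summed to 53.7 and 54.0 CPM in the wild type and 70.2 and 65.5 CPM in the knockout, pericyte markers to 657 and 791 CPM and 638 and 671 CPM, osteoblast markers to 23.2 and 28.9 CPM and 49.9 and 45.3 CPM, and skeletal and heart muscle markers to 46.7 and 45.1 CPM and 77.8 and 77.7 CPM. Nearly all of the skeletal and heart muscle sum was Tnnt2, at 46.4 and 44.6 CPM in the wild type and 77.5 and 76.9 CPM in the knockout. Of 7 pericyte markers tested, 1 rose and 3 fell. Pdgfrb rose from 214 and 249 to 425 and 430 CPM, and Cspg4 fell from 394 and 488 to 186 and 221 CPM. The part of other cell types in the results was not tested.

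In all, 3065 genes rose and 3426 fell. A change of more than 2-fold was found for 536 of the risen genes, 3.83% of those tested, and for 1135 of the fallen genes, 8.11% of those tested. Among the 6491 genes past the test, 3019 (46.5%) changed by less than 0.5 on the log2 scale. In 99.7% of the genes past the test both knockout libraries lay on 1 side of both wild-type libraries, against 71.3% of all tested genes. Where pairs of a named gene are said not to overlap, this therefore adds little to its call. Summed over genes past the test, the falls in CPM were -143668 and the rises 77304. These sums depend on the scaling factors, which were 1.003 and 0.962 in the wild type and 1.061 and 1.035 in the knockout. The knockout CPM add up to a lower total, so the excess of falls largely follows from the scaling.

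Chromosome 18 held the largest share of risen genes among the autosomes. Of its 378 tested genes, 259 (68.5%) rose and 33 (8.73%) fell, and the median log2 change was 0.54. On chromosome 1, 405 of 809 genes (50.1%) rose and 106 (13.1%) fell, with a median of 0.30. Chromosome 9 went the other way: 34 of 772 genes (4.4%) rose and 412 (53.4%) fell, with a median of -0.36. Smaller downward shifts stood on chromosome 19, where 40.5% fell and the median was -0.18, and on chromosome 15, where 36.6% fell and the median was -0.15. The other autosomes and X had medians between -0.10 on chromosome 11 and 0.09 on chromosome 4. No test was run on these shares.

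**Figure D1:**
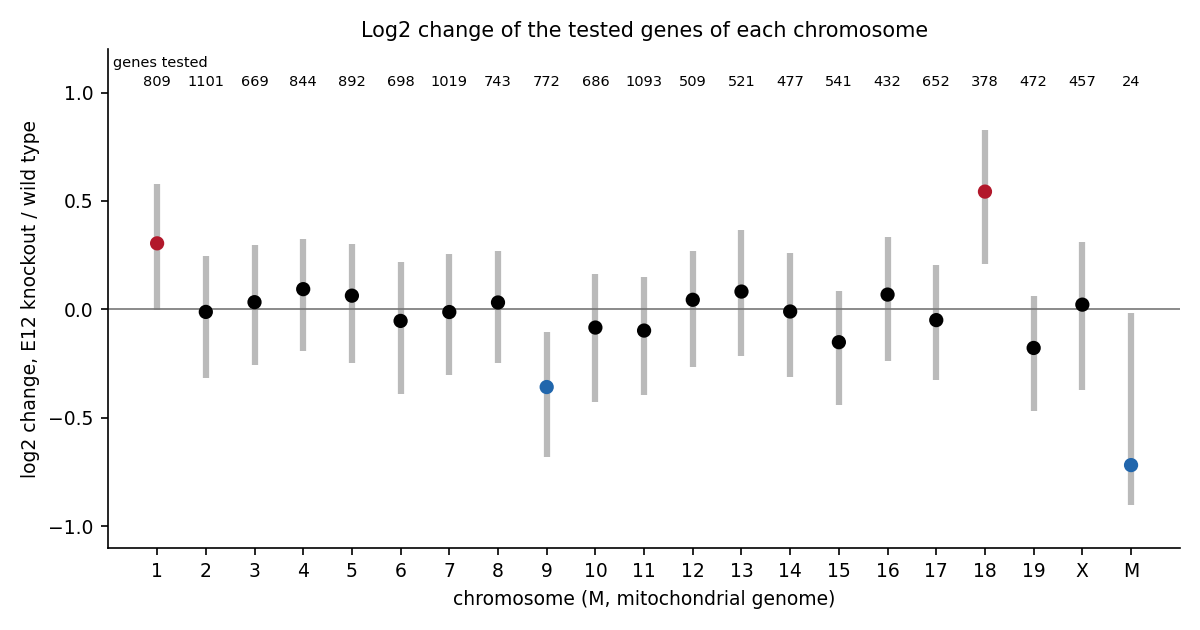
Median log2 change (points) and spread of the genes (grey bars, lower to upper quartile) for the tested genes of each chromosome, with the number of genes on top. Chromosomes 1 and 18 (red) lie above 0, at 0.30 and 0.54, and chromosome 9 and the mitochondrial genome (blue) lie below, at -0.36 and -0.72.

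The shift ran along the whole length of each of these chromosomes. When the genes were cut by position into 5 equal groups, the medians were 0.28 to 0.39 on chromosome 1, -0.30 to -0.44 on chromosome 9 and 0.50 to 0.62 on chromosome 18. Both knockout libraries showed it: against the mean of the wild-type pair, the median log2 ratio of chromosome 18 was 0.53 and 0.56, that of chromosome 1 was 0.30 and 0.31, and that of chromosome 9 was -0.36 and -0.33. The wild-type libraries lay within 0.011 of their mean on these 3 chromosomes. In relation to the mean of the 4 genotypes, chromosome 18 stood at 0.38 in the E12 KO and at -0.16, -0.15 and -0.04 in E12 WT, E47 WT and E47 KO. Chromosome 1 stood at 0.26 in the E12 KO, with -0.05, -0.14 and -0.03 in the same order. For chromosome 9 the values were 0.16 in the E12 WT and -0.18 in the E12 KO, with 0.01 and 0.02 in the E47 genotypes, so on this chromosome both E12 groups stood apart from the E47 groups. These chromosomes were picked for their shift in the E12 KO. On others, the E47 WT libraries also stood apart from the E12 wild-type mean. Their median log2 ratios were -0.35 and -0.40 on chromosome 19, -0.29 and -0.30 on chromosome 11, and 0.24 and 0.29 on chromosome 16. Shifts of a whole chromosome were thus not particular to the E12 KO. DNA copy number was not measured in these libraries and its part was not tested.

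**Figure D2:**
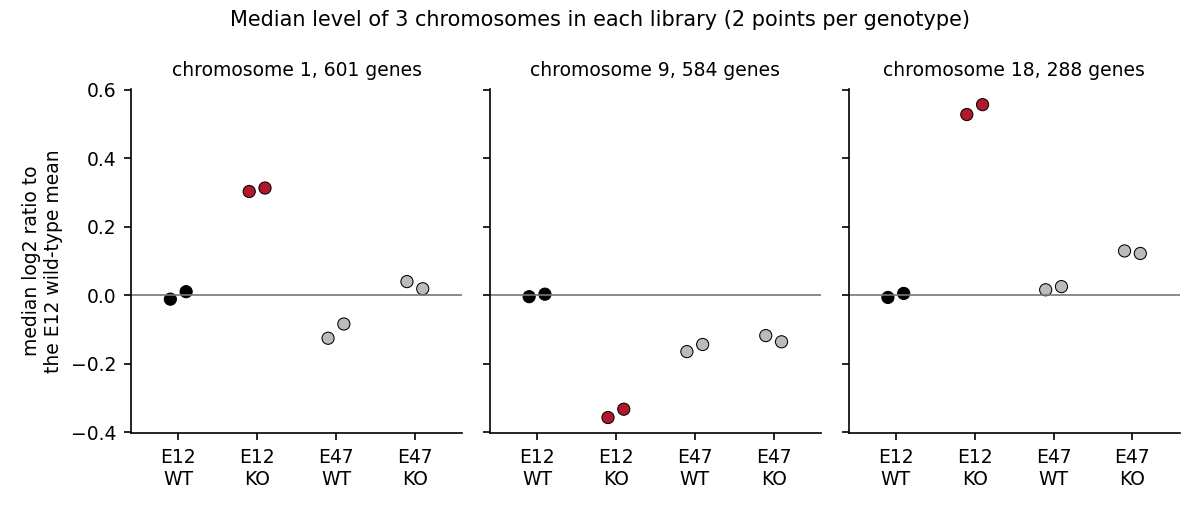
Median log2 ratio to the E12 wild-type mean for the genes of chromosomes 1, 9 and 18 with a mean of at least 5 CPM, 1 point per library. The 2 E12 knockout libraries (red) lie at 0.30 and 0.31, -0.36 and -0.33, and 0.53 and 0.56. The 4 E47 libraries (grey) lie between -0.16 and 0.13 on these chromosomes, which were picked for their shift in the E12 knockout.

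Taking out each chromosome's median left 2777 risen genes (19.8% of those tested) and 3140 fallen genes (22.4%). Of these, 2391 and 2873 were also called without that step, and 25 genes were called in opposite directions. Among the 12033 genes outside chromosomes 1, 9 and 18, 2337 (19.4%) rose and 2848 (23.7%) fell. Values after this step are called chromosome-centred.

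Of 82 gene families with at least 8 tested members, 55 had more fallen than risen members, 26 more risen than fallen, and 1 had equal numbers. The families at either end of that order are described with their functional neighbours. Families and lists share some members, and none was tested as a set. Each count is to be read beside the shares of all tested genes, 21.9% risen and 24.5% fallen.

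**Figure D3:**
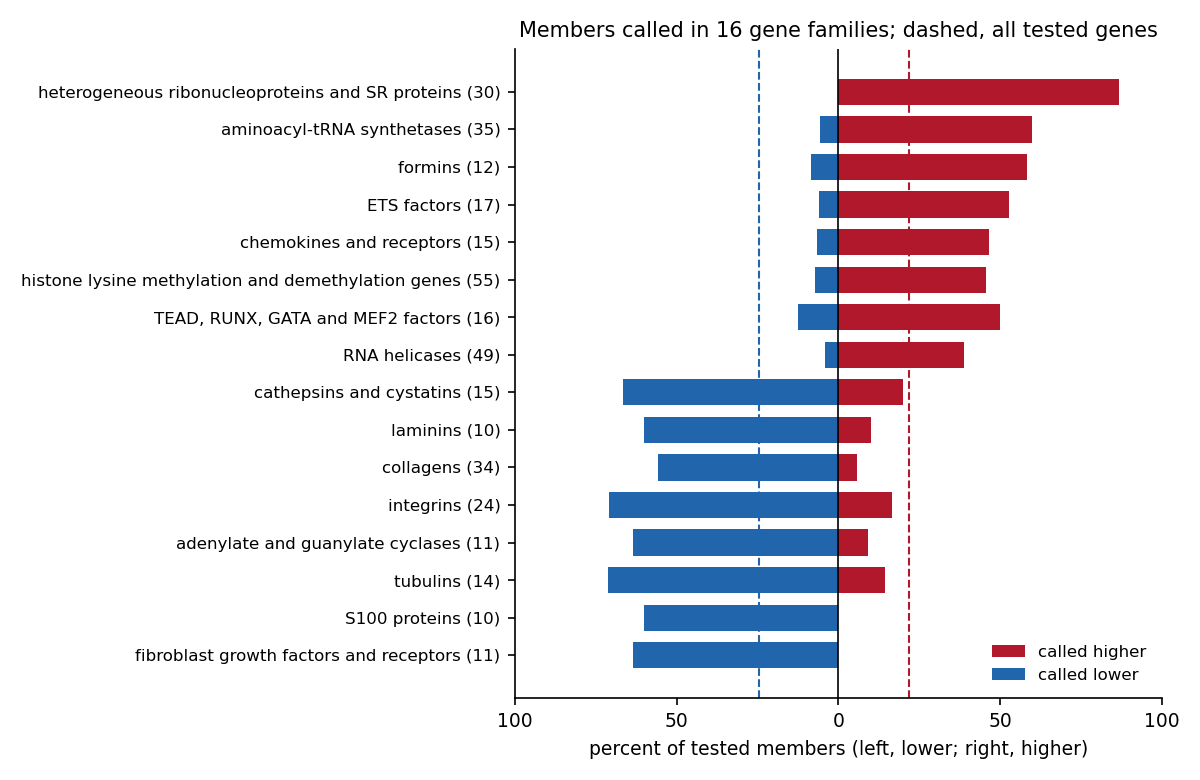
Percent of tested members that rose (red, to the right) and fell (blue, to the left) in the 8 families with the largest excess of each, with the number tested in brackets and dashed lines for all tested genes (21.9% and 24.5%). The bar for hnRNP and SR proteins reaches 86.7% on the risen side, and those for tubulins and integrins reach 71.4% and 70.8% on the fallen side.

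The hnRNP and SR proteins coat newly made transcripts and guide splicing, export and stability. After centring by chromosome, 26 of 30 rose, and outside chromosomes 1, 9 and 18 the count was 25 of 29. Hnrnpd, which binds AU-rich elements in messenger RNA, measured 57.8 and 60.2 CPM in the wild type and 97.3 and 113 CPM in the knockout (log2 change 0.83, SE 0.0799, adjusted p = 7.6e-07). Hnrnpa1, a regulator of splice site choice, measured 382 and 365 CPM in the wild type and 600.4 and 618 CPM in the knockout (log2 change 0.71, SE 0.0665, adjusted p = 6.2e-07). In both genes the libraries of the 2 genotypes did not overlap, and the knockout pair was the higher. Hnrnpu, a nuclear scaffold protein on chromosome 1, went from 389.8 and 419 to 650.1 and 695 CPM, a log2 change of 0.73 that was 0.43 after centring (adjusted p = 2.2e-04). Hnrnpm went from 192 and 198 to 293 and 301 CPM and Hnrnpa0 from 259 and 265 to 369 and 403 CPM. Hnrnpa1 has near-identical processed copies in the genome, and the handling of reads with several matches is not given in these sources, so its level is uncertain.

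The 250 bases before the annotated start are shown for 3 risen members of this family and 3 fallen members of the collagen-modifying list, those with the largest change among members with a single promoter entry that could be printed, because E12 binds E-boxes. The sequences are from RefSeq, build GRCm38.p6, written 5′ to 3′ on the strand of the gene, and capitals mark each CANNTG.
Hnrnpd, chr5:99978939-99979188, minus strand: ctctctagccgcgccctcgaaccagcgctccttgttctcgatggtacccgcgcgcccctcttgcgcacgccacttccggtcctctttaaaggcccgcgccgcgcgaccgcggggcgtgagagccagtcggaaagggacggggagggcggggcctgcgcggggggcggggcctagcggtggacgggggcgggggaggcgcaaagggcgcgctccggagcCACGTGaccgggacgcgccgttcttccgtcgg
Hnrnpu, chr1:178337816-178338065, minus strand: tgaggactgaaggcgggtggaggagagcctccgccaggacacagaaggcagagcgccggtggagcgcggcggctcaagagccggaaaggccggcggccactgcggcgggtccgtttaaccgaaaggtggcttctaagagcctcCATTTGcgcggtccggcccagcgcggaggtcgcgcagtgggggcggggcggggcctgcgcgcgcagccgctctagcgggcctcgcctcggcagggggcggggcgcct
Hnrnpa1, chr15:103240147-103240396, plus strand: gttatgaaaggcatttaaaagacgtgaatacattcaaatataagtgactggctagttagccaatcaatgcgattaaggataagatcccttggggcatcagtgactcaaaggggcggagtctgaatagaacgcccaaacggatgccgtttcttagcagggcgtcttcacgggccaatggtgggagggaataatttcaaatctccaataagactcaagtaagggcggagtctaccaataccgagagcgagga
Pcolce2, chr9:95637378-95637627, plus strand: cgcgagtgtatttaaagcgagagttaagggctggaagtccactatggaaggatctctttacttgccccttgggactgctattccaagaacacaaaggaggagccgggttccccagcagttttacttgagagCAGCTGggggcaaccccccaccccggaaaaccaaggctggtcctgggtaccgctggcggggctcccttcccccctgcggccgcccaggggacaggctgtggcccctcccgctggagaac
Sparc, chr11:55420081-55420330, minus strand: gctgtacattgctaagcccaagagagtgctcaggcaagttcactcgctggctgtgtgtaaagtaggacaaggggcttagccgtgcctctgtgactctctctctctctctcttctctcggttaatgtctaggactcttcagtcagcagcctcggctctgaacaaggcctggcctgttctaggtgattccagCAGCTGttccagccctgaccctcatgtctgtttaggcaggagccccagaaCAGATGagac
P3h3, chr6:124857718-124857967, minus strand: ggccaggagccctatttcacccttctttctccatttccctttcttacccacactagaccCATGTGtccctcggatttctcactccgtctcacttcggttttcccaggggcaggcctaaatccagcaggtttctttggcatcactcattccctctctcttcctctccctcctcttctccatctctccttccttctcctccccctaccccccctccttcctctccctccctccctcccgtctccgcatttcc
CANNTG is its own reverse complement, so 1 search covered both strands, and it occurred 1 time before Hnrnpd, Hnrnpu, Pcolce2 and P3h3, 2 times before Sparc and 0 times before Hnrnpa1. One site each before Pcolce2 and Sparc was CAGCTG. Of 32851 windows of this length in the table, 66.2% held a CANNTG, 13% a CAGCTG and 17.2% a CAGGTG or its reverse, CACCTG. A comparison of these shares between risen and fallen genes was void, because promoter entries were found for 75.3% of the risen and 77.9% of the fallen protein-coding genes, under the 80% required. A match is a description of the letters in the window and not a binding site.

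Aminoacyl-tRNA synthetases, which load each tRNA with its amino acid, rose in 21 of 35 tested members and fell in 2, with a median of 0.33. After centring, 15 rose and 3 fell, and the median was 0.23. The fallen members were Mars, the cytosolic methionine enzyme, at 134 and 129.7 CPM in the wild type and 102 and 109 CPM in the knockout, and Qars, the glutamine enzyme, at 105 and 102 CPM in the wild type and 91.7 and 86.1 CPM in the knockout; without wild-type library 1, 1 of them passed the test. Lars, the cytosolic leucine enzyme on chromosome 18, measured 102 and 105 CPM in the wild type and 192 and 213 CPM in the knockout (log2 change 0.97, SE 0.0743, adjusted p = 6.8e-08), which was 0.43 after centring. Dars, the aspartate enzyme on chromosome 1, went from 87.9 and 78 to 126 and 133 CPM. The mitochondrial leucine enzyme Lars2 measured 109 and 123 CPM in the wild type and 261 and 259 CPM in the knockout (log2 change 1.17, SE 0.203, adjusted p = 2.6e-04), against the direction of its chromosome 9. An entry for ribosomal RNA-like sequence, CT010467.1, chosen after its values were seen, moved with it, at 285 and 299 CPM in the wild type and 733 and 745 CPM in the knockout, and its part in the Lars2 value was not tested.

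Ribosome biogenesis and nucleolar genes rose in 29 of 50 and fell in 3 (Nop10, Bop1 and Bysl, named after their values were seen), with a median of 0.29, and 27 rose and 2 fell after centring. Without knockout library 2, 19 rose. Dkc1, the pseudouridine synthase of the nucleolus and of telomerase, measured 24.1 and 25.3 CPM in the wild type and 43.4 and 43.1 CPM in the knockout (log2 change 0.81, SE 0.0848, adjusted p = 1.8e-06). Ncl, nucleolin, is on chromosome 1 and measured 439 and 457 CPM in the wild type and 727 and 771 CPM in the knockout (log2 change 0.74, 0.44 after centring). Rrs1, an assembly factor of the large ribosomal subunit on the same chromosome, went from 41.4 and 38.3 to 77.4 and 78.6 CPM. The knockout pair was above the wild-type pair in each of these genes.

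RNA helicases, which unwind RNA in splicing, ribosome assembly and translation, rose in 19 of 49 and fell in 2, with a median of 0.11. Those that fell were Dhx8 and the Y-linked Ddx3y, named after their values were seen. This count varied with the libraries: 12 rose without knockout library 2, 4 fell without wild-type library 2, and 1 fell without knockout library 1 or after centring. Ddx18, which acts in ribosome assembly, went from 45 and 43.4 to 64.5 and 64.6 CPM, and Ddx46, a spliceosome helicase, from 81.9 and 86.5 to 105 and 121 CPM. Nuclear pore and transport genes rose in 15 of 44 and fell in 2, and the number risen was 5 without knockout library 2, against 14 without knockout library 1. Without wild-type library 2 or with upper quartile scaling, 4 of them fell. Nup188 of the inner ring rose from 50.4 and 59.2 to 74.3 and 86.7 CPM, and Aaas fell from 47.3 and 46 to 31.1 and 31.2 CPM.

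Serine, one-carbon and nucleotide synthesis genes, which supply building blocks for RNA and DNA, rose in 14 of 36 and fell in 6, with a median of 0.17. Aldh1l2, which oxidises formyl-tetrahydrofolate in mitochondria, measured 28.2 and 31.3 CPM in the wild type and 59.1 and 67.3 CPM in the knockout (log2 change 1.09, SE 0.106, adjusted p = 9.4e-07). Phgdh, the entry enzyme of serine synthesis, went from 115 and 106 to 174 and 176 CPM and Psat1, the next enzyme, from 118 and 112 to 173 and 187 CPM. Their libraries did not overlap between genotypes.

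Histone lysine methyltransferases and demethylases rose in 25 of 55 and fell in 4, with a median of 0.16, and the number risen was 16 without wild-type library 1 or without knockout library 2. Without knockout library 2, the number fallen was 2. Kdm3a, a demethylase of histone H3 lysine, went from 30.4 and 28.5 to 49.4 and 47.2 CPM (log2 change 0.71, SE 0.0819, adjusted p = 4.7e-06). DNA methylation, polycomb and remodelling genes rose in 22 of 59 and fell in 6, with a median of 0.16. Without wild-type library 1, 13 rose and 10 fell, without knockout library 2, 13 rose, and 28 rose and 7 fell after centring. Tet1, which oxidises methylcytosine, fell from 4.59 and 6.35 to 1.64 and 2.1 CPM, and Bmi1, a polycomb ring protein, rose from 56 and 53.8 to 86.3 and 84.2 CPM. Of 59 DNA repair genes, 13 rose and 4 fell, which is near the share of all genes for rises; 1 fell without wild-type library 1 and 2 fell without knockout library 2 or with the E12 libraries alone. Mlh3 of mismatch repair rose from 10.5 and 11.6 to 21.9 and 24.2 CPM.

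**Figure D4:**
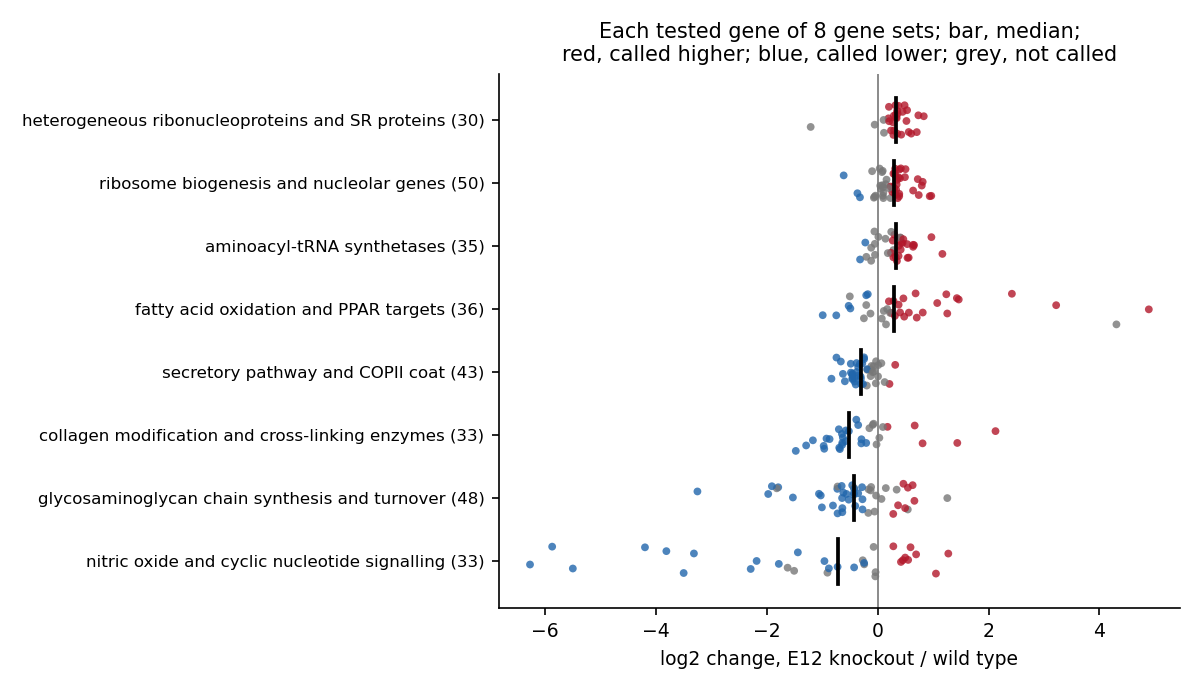
Log2 change of each tested gene in 8 gene sets, with the number tested in brackets, the median as a black bar, risen genes in red, fallen genes in blue and genes that did not pass the test in grey. The medians are 0.34, 0.29, 0.33 and 0.30 in the upper 4 sets and -0.30, -0.52, -0.42 and -0.72 in the lower 4.

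Both transcription factor families described here were picked for their excess of risen members, so they do not stand for transcription factors in general. Hox genes rose in 7 of 23 and fell in 12. Basic helix-loop-helix factors outside E and Id proteins rose in 6 of 32 and fell in 11, and Kruppel-like and SP factors rose in 6 of 21 and fell in 3. ETS factors, which bind GGAA cores and respond to growth signals, rose in 9 of 17, with a median of 0.27. Their fallen member was Fli1, an endothelial and blood cell regulator on chromosome 9, at 10.4 and 8.67 CPM in the wild type and 0.29 and 0.36 CPM in the knockout (log2 change -4.87, SE 0.252, adjusted p = 8.7e-10). Etv4, a factor downstream of receptor tyrosine kinases, went from 6.13 and 5.68 to 14.9 and 16 CPM and Ets2 from 37.7 and 36.9 to 74.2 and 67.2 CPM, with no overlap between the genotypes. TEAD, RUNX, GATA and MEF2 factors rose in 8 of 16 and fell in 2, with a median of 0.16, and 1 fell with the E12 libraries alone or without knockout library 1. Mef2c, a regulator of muscle and vascular development, measured 6.83 and 7.4 CPM in the wild type and 33 and 33.8 CPM in the knockout (log2 change 2.23, SE 0.117, adjusted p = 9.6e-10). Runx1 went from 3.83 and 4.26 to 12.6 and 10.9 CPM and Tead2, a partner of YAP, from 25.7 and 24 to 63.1 and 59.4 CPM. Gata4 was at 7.02 and 5.08 CPM in the wild type, without a count in either knockout library, and Runx3 had 2 counts in the wild-type pair and 2.51 and 3.36 CPM in the knockout, so no fold is given for them.

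Many of the largest changes in CPM lay in matrix and cytoskeleton genes, but not all. The 12 largest rises also held Eno1, Cxcl12, Rps2 and Ptma, and the 12 largest falls also held Cpe and mt-Co1. Eno1 went from 900 and 834 to 1346 and 1382 CPM and Cpe from 4556 and 4303 to 3187 and 2958 CPM. Thbs1, a matrix protein that binds cells and activates TGF-beta, measured 11864 and 13565 CPM in the wild type and 6342 and 7199 CPM in the knockout (log2 change -0.91, SE 0.082, adjusted p = 3.9e-07). Sparc, a collagen-binding glycoprotein, measured 9846 and 9229 CPM in the wild type and 4914 and 4879.7 CPM in the knockout (log2 change -0.96, SE 0.0653, adjusted p = 1.8e-08). Ccn2, a matricellular target of YAP and TGF-beta, measured 3984 and 3964 CPM in the wild type and 1708 and 1645 CPM in the knockout (log2 change -1.25, SE 0.0627, adjusted p = 6.4e-10). The genes of this paragraph were chosen for a large fall in CPM with separate pairs, so the distance between their pairs follows from the choice. Cemip, which takes part in the breakdown of hyaluronan, went from 3895 and 4306 to 1353 and 1492 CPM. The metalloproteinase inhibitors Timp2 and Timp3 went from 3315 and 3363 to 1898 and 1822 CPM and from 2474 and 2639 to 1069 and 1131 CPM. Ndnf, a secreted factor, had a log2 change of -2.32 (SE 0.0727, adjusted p = 4.4e-12), from 2405 and 2544 to 474 and 519.8 CPM.

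Among the 12 largest rises in CPM were Col1a2, a chain of type I collagen, and a group of cytoskeleton genes. Col1a2 measured 5280.1 and 5464 CPM in the wild type and 7713 and 8262 CPM in the knockout (log2 change 0.57, SE 0.0656, adjusted p = 4.7e-06). Vim, the intermediate filament vimentin, went from 3778 and 3623 to 5212 and 5187 CPM and Flna, an actin cross-linker, from 2569 and 3100.1 to 3659.6 and 4143 CPM. Fscn1, which bundles actin in filopodia, measured 687 and 675 CPM in the wild type and 1244 and 1388 CPM in the knockout (log2 change 0.95, SE 0.0706, adjusted p = 4.9e-08). Dpysl3, a cytoskeleton-associated protein on chromosome 18, measured 593 and 598 CPM in the wild type and 2384 and 2636 CPM in the knockout (log2 change 2.07, SE 0.0785, adjusted p = 2.8e-11), and its change was 1.53 after centring. Tagln2, an actin-binding protein on chromosome 1, went from 404 and 401 to 946 and 975 CPM (log2 change 1.25, 0.95 after centring). Separate pairs were a condition for naming these genes. Among them, the distance between the pairs was smallest in relation to the level in Col1a2, Vim and Flna.

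**Figure D5:**
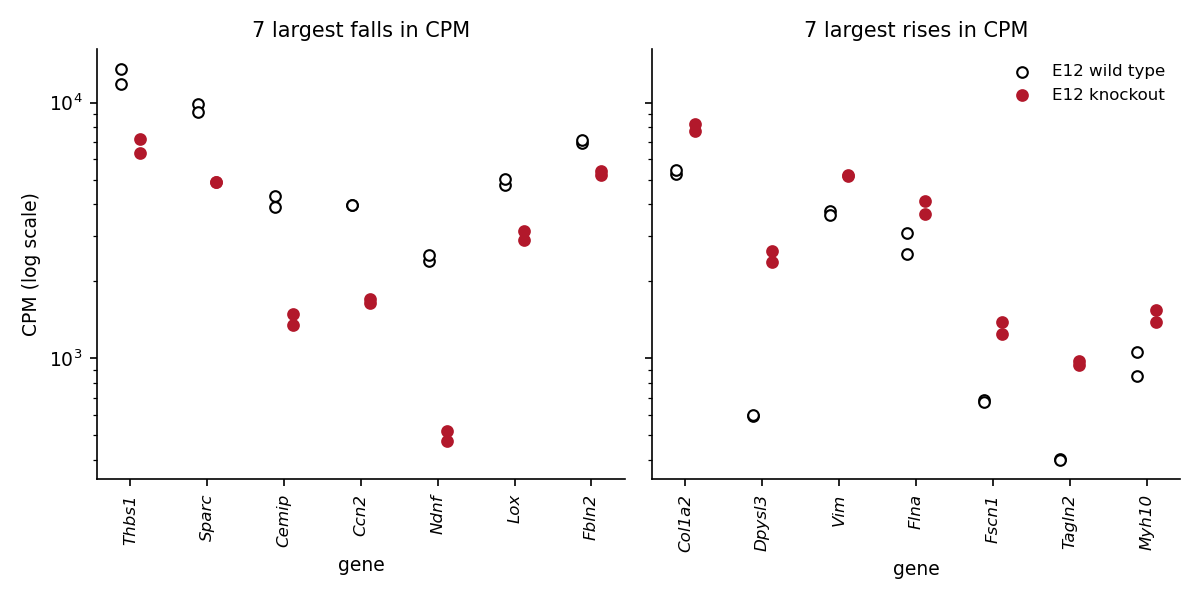
Level in CPM (log scale) in each E12 library, wild type as open and knockout as red points, for the 7 genes with the largest fall and the 7 with the largest rise in mean CPM among genes past the test with separate pairs. Thbs1 is the highest, at 11864 to 13565 CPM in the wild type and 6342 to 7199 CPM in the knockout. By the choice of genes, the red pair lies above the open pair in all 7 genes of the right panel.

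Enzymes that modify and cross-link collagen fell in 22 of 33 and rose in 5, with a median of -0.52, which was -0.32 after centring with the same counts. The lysyl oxidases make the cross-links of collagen and elastin. Lox, on chromosome 18, measured 4773 and 5023 CPM in the wild type and 2892 and 3143 CPM in the knockout (log2 change -0.70, SE 0.0728, adjusted p = 1.8e-06), a change of -1.24 after centring. Loxl3 measured 214 and 202 CPM in the wild type and 72.6 and 77 CPM in the knockout (log2 change -1.48, SE 0.0697, adjusted p = 3.2e-10), and Loxl1, on chromosome 9, measured 219 and 229 CPM in the wild type and 93.7 and 89.6 CPM in the knockout (log2 change -1.29, -0.93 after centring). Each of the 3 was lower in both knockout libraries than in either wild-type library. Pcolce2, which helps to cleave the collagen propeptide, went from 37.8 and 36.1 to 15.7 and 17.4 CPM, and P3h3, a prolyl hydroxylase, from 97.8 and 98.7 to 55.5 and 52.3 CPM. Against the rest of the list, P3h2, another prolyl hydroxylase, rose from 9.44 and 10.2 to 40.8 and 44.8 CPM, though 28.4% of its exon length overlaps a predicted gene and strand was not kept. Tll1, a propeptide protease, rose from 15.4 and 17.7 to 39 and 50.7 CPM.

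Collagens fell in 19 of 34 and rose in 2, with a median of -0.44. The risen members were Col1a2 and Col28a1, the latter named after its values were seen, and the 34 include Col4a3bp, a lipid transfer protein taken by its symbol; 1 rose without wild-type library 2 or without knockout library 1. Col2a1, the cartilage collagen, measured 189 and 219.5 CPM in the wild type and 1.69 and 1.68 CPM in the knockout (log2 change -6.91, SE 0.12, adjusted p = 2.1e-14). Col4a3, a basement membrane collagen on chromosome 1, measured 581 and 673 CPM in the wild type and 133 and 156 CPM in the knockout (log2 change -2.12, SE 0.0973, adjusted p = 2.3e-10). Chondrocyte markers, which include Col2a1 and Acan, fell in 5 of 9 tested, and their summed level was 338 and 390 CPM in the wild type and 105 and 116 CPM in the knockout, with Matn1, Col9a1, Hapln1 and Snorc without a count. The part of such cells in these values was not tested. Laminins, the cross-shaped proteins of the basement membrane, fell in 6 of 10 and rose in 1. Lama2 went from 59 and 92.2 to 0.531 and 0.541 CPM and Lamb2, on chromosome 9, from 722 and 768 to 385 and 402 CPM, and Lama4 rose from 3.64 and 4.26 to 6.81 and 7.87 CPM. Basement membrane genes as a list, which shares these members, fell in 21 of 33 and rose in 5. The wild-type libraries differed from each other in Lama2 and in Hmcn1, a long hemicentin gene at 154 and 392 CPM in the wild type and 67.5 and 90.1 CPM in the knockout, although the pairs did not overlap.

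The summed mesothelial markers, 1554 to 1663 CPM in the wild type and 948 to 977 CPM in the knockout, moved in the same direction as the laminins, the basement membrane genes and the integrins, and the part of such cells in these values was not tested.

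Integrins, the receptors that tie cells to matrix, fell in 17 of 24 and rose in 4, with a median of -0.50. Membership went by symbol, so the 24 include Itgb3bp, Itgbl1 and Itgb1bp1, which are not receptor chains; the risen symbols were Itga8, Itgb2, Itgb3bp and Itgbl1, named after their values were seen. Itga2, a collagen receptor chain, measured 24.5 and 25.8 CPM in the wild type and 2.08 and 1.74 CPM in the knockout (log2 change -3.70, SE 0.161, adjusted p = 1.3e-10). The laminin receptor chains Itga6 and Itgb4 went from 41.3 and 43.1 to 9.99 and 8.53 CPM and from 18.4 and 17.6 to 1.83 and 1.5 CPM. Itgb1, the common beta chain and a member of the family chosen after its values were seen, measured 1730.0 and 1782 CPM in the wild type and 1312 and 1407 CPM in the knockout (log2 change -0.37, SE 0.0689, adjusted p = 4.7e-04), a smaller log2 change than in those 3 chains. Focal adhesion genes, which join integrins to actin, were split, with 17 of 45 risen and 15 fallen. Kank4 fell from 47.5 and 53.7 to 2.99 and 3.004 CPM, and Enah, an actin polymerase cofactor on chromosome 1, rose from 10.3 and 10.02 to 21.4 and 22.1 CPM.

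Genes for glycosaminoglycan chains, the sugars of proteoglycans, fell in 27 of 48 and rose in 7, with a median of -0.42; after centring 25 fell and 3 rose. Xylt1, which starts the chains, went from 2.999 and 4.34 to 0.965 and 0.961 CPM and Chst11, a chondroitin sulfotransferase, from 10.5 and 10.5 to 2.85 and 3.24 CPM. Hyal1, a hyaluronidase, went from 20.4 and 20.3 to 5.36 and 4.99 CPM, but 51.9% of its exon length overlaps Naa80 and the reads cannot be told apart. Core proteins of proteoglycans moved in both directions, with 10 of 26 risen and 9 fallen. Prelp, a small leucine-rich proteoglycan on chromosome 1, measured 26.5 and 31.1 CPM in the wild type and 239 and 227 CPM in the knockout (log2 change 3.02, SE 0.086, adjusted p = 2.4e-12), and Lum, lumican, went from 0.319 and 0.149 to 5.02 and 4.15 CPM. Acan, aggrecan, went the other way, from 22.2 and 31.5 to 2.65 and 3.42 CPM, and Vcan, versican, rose from 32.3 and 42.4 to 83.6 and 112 CPM.

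Genes of the early secretory pathway, which carry new proteins from the endoplasmic reticulum to the Golgi, fell in 27 of 43. The 2 that rose, Copa and Tram1, both lie on chromosome 1 and were named after their values were seen; neither passed after centring, when 26 fell. Without wild-type library 1 or knockout library 2, 1 rose. Spcs3, a subunit of the signal peptidase, measured 507 and 482 CPM in the wild type and 266 and 289 CPM in the knockout (log2 change -0.83, SE 0.0761, adjusted p = 4.5e-07). Sec62, a translocon component, went from 213 and 206 to 139.7 and 139 CPM and Kdelr3, which retrieves resident proteins from the Golgi, from 68.3 and 55.6 to 39.8 and 40.7 CPM. Srprb, the membrane subunit of the signal recognition particle receptor on chromosome 9, went from 100.2 and 108 to 64.6 and 59.5 CPM (log2 change -0.74, -0.38 after centring). Changes in this list were small, between -0.83 and 0.32. Of 46 vesicle and endosomal sorting genes, a later step, 9 (19.6%) rose and 13 (28.3%) fell. These shares were near those of all tested genes, 21.9% and 24.5%. Stxbp6 fell from 16 and 16.5 to 4.44 and 4.63 CPM.

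Lysosomal enzymes and membrane proteins fell in 22 of 47 and rose in 7, with a median of -0.12, and the cathepsins and cystatins fell in 10 of 15 and rose in 3, with a median of -0.46. Ctsc, which activates granule proteases, measured 3.64 and 4.71 CPM in the wild type and 0.145 and 0.18 CPM in the knockout (log2 change -4.63, SE 0.418, adjusted p = 4.0e-07). Ctsz went from 357 and 342 to 218 and 209 CPM and Ctsf from 44.6 and 38.9 to 21.3 and 18 CPM. Autophagy genes showed no such lean, with 6 of 37 risen and 8 fallen, and with 5 fallen when knockout library 2 was left out. Map1lc3a fell from 63.9 and 58.8 to 40.7 and 40.1 CPM.

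Adenylate and guanylate cyclases, which make the second messengers cAMP and cGMP, fell in 7 of 11 and rose in 1, with a median of -0.90. Gucy1a1, a subunit of the nitric oxide receptor that relaxes smooth muscle, measured 105 and 109 CPM in the wild type and 10.7 and 10.8 CPM in the knockout (log2 change -3.31, SE 0.1003, adjusted p = 3.4e-12). Adcy5 measured 47 and 48.6 CPM in the wild type and 2.08 and 3.24 CPM in the knockout (log2 change -4.19, SE 0.145, adjusted p = 1.0e-11). Adcy3, the risen member, went from 21 and 21.9 to 32.9 and 31.7 CPM. The wider list of nitric oxide and cyclic nucleotide genes fell in 16 of 33 and rose in 9, with a median of -0.72. Phosphodiesterases, which break the messengers down, went both ways, with 5 of 15 risen, 6 fallen and a median of -0.07. Pde5a, which acts on cGMP and was named after its values were seen, rose from 21.7 and 29.8 to 40.4 and 42.5 CPM. Pde10a fell from 8.36 and 9.27 to 0.0483 and 0.18 CPM and Pde8b fell from 18.2 and 17 to 0.29 and 0.3004 CPM. Npr3, the natriuretic peptide clearance receptor, measured 679.8 and 769 CPM in the wild type and 63 and 65.3 CPM in the knockout (log2 change -3.50, SE 0.0915, adjusted p = 1.1e-12). The named cyclases other than Adcy3 and the named receptor were lower in both knockout libraries than in either wild-type library.

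Fibroblast growth factors and their receptors fell in 7 of 11, and the other 4 did not pass the test; the median was -0.53. Among ligands, Fgf18 went from 105 and 102 to 48.2 and 47.6 CPM and Fgf1, on chromosome 18, from 11.5 and 9.49 to 3.57 and 4.15 CPM, against the direction of that chromosome. Among receptors, Fgfr3 measured 33.4 and 32.4 CPM in the wild type and 8.88 and 9.49 CPM in the knockout (log2 change -1.84, SE 0.107, adjusted p = 3.1e-09), and the receptor-like Fgfrl1, which has no kinase domain, measured 92.8 and 94.3 CPM in the wild type and 34.9 and 33.3 CPM in the knockout (log2 change -1.45, SE 0.0713, adjusted p = 4.9e-10). Neurotrophin and GDNF genes fell in 11 of 20 and rose in 3, with a median of -0.76, and none rose without wild-type library 1. Nrtn, neurturin, went from 2.55 and 2.47 to 0.579 and 1.02 CPM and Sorcs1, a sorting receptor, from 1.79 and 2.32 to 0.579 and 0.24 CPM. EGF family genes fell in 7 of 17 and rose in 3. Erbb3 fell from 4.47 and 5.01 to 1.5 and 1.98 CPM. Of 22 VEGF, angiopoietin and hepatocyte growth factor genes, 8 fell and 6 rose, with 3 risen when wild-type library 1 was left out, and Flt4, a VEGF receptor, went from 3.38 and 5.31 to 0.29 and 0 CPM. Endothelial markers fell in 4 of 12 tested, from a summed 46.8 and 47.4 CPM to 29.0 and 29.1 CPM, with Cldn5 without a count, and the part of such cells was not tested.

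YAP and TEAD targets, genes switched by mechanical and contact signals, fell in 20 of 34 and rose in 7, with a median of -0.34. Besides Ccn2, F3, tissue factor, fell from 52.4 and 50.4 to 19.5 and 19.1 CPM and Nt5e, which makes adenosine, from 10.5 and 9.94 to 2.9 and 4.33 CPM. Risen members included Tead2, from 25.7 and 24 to 63.1 and 59.4 CPM, and Foxf2, with the largest log2 change of the list, 3.19. Hedgehog pathway genes were split, with 7 of 19 risen and 8 fallen. Gas1, a co-receptor, measured 22.3 and 22.8 CPM in the wild type and 0.386 and 0.781 CPM in the knockout (log2 change -5.30, SE 0.251, adjusted p = 3.3e-10), and Ptch1, the receptor and a target, went from 31.5 and 37.4 to 16.5 and 21 CPM. The forkhead targets Foxf1 and Foxf2 rose, from 0.638 and 0.747 to 14.7 and 13.3 CPM and from 0.766 and 0.747 to 6.52 and 7.51 CPM. Of 24 planar polarity genes, 7 rose and 7 fell, with 4 fallen without wild-type library 2 and 3 without knockout library 1. Wnt5a rose from 10.6 and 14.4 to 31.3 and 30.3 CPM and Ptk7, a co-receptor in that pathway, fell from 29.3 and 29.1 to 3.57 and 3.6 CPM.

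Tubulins, the subunits of microtubules, fell in 10 of 14, with a median of -0.49. Of the others, 2 rose, by at most 0.23, but 0 rose without wild-type library 2 or after centring and 1 rose when either knockout library was left out. These were Tubb2b and Tubb6, named after their values were seen. Tubb4a measured 339 and 334 CPM in the wild type and 67 and 69.9 CPM in the knockout (log2 change -2.30, SE 0.0677, adjusted p = 3.2e-12). Tubb4b went from 358 and 334 to 211 and 215 CPM and Tubg2, a gamma tubulin of nucleation sites, from 9.38 and 8.82 to 1.83 and 1.38 CPM. Tubulin genes are close in sequence, and reads that match several of them could be split in ways not given in these sources. Formins, which nucleate actin filaments, rose in 7 of 12 and fell in 1, with a median of 0.30, or 5 and 3 after centring. Daam2, a formin of Wnt signalling, measured 3.25 and 4.86 CPM in the wild type and 62.3 and 62.5 CPM in the knockout (log2 change 3.96, SE 0.133, adjusted p = 8.1e-12), and Diaph2 fell from 49.3 and 68.3 to 37.9 and 44 CPM. Septins had been grouped with them, but their symbols had been turned into dates in the deposited table and were not counted. S100 proteins, small calcium sensors, fell in 6 of 10 and the other 4 did not pass the test; S100a6 went from 782 and 709 to 475 and 431 CPM and S100a16 from 108 and 90.2 to 43.1 and 45.5 CPM.

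Fatty acid oxidation and PPAR target genes rose in 20 of 36 and fell in 6, with a median of 0.30. Pparg, the nuclear receptor of fat cell differentiation, measured 10.2 and 9.57 CPM in the wild type and 27 and 27.7 CPM in the knockout (log2 change 1.46, SE 0.104, adjusted p = 2.8e-08). Angptl4, an inhibitor of lipoprotein lipase, went from 3.45 and 3.29 to 18.9 and 17.2 CPM and Plin4, a lipid droplet coat protein, from 19.8 and 20.2 to 60.5 and 46.7 CPM. Fabp4, a fatty acid carrier, had 2 counts in all in the wild type and 2.27 and 2.22 CPM in the knockout. Adipocyte markers, which share Pparg and Fabp4, rose in 4 of 5 tested, from a summed 32.2 and 32.4 CPM to 93.6 and 80.3 CPM, while Adipoq, Cidec and Retn had no count in any E12 library. Lipoprotein receptors and apolipoproteins fell in 14 of 32 and rose in 5, with a median of -0.44. Vldlr went from 43.3 and 50.9 to 9.75 and 8.53 CPM and Pltp, the phospholipid transfer protein, from 148 and 141 to 55.6 and 55.5 CPM. Sphingolipid and phosphoinositide genes fell in 14 of 41 and rose in 6. Smpd3, a sphingomyelinase, measured 1211 and 1254 CPM in the wild type and 479 and 545 CPM in the knockout (log2 change -1.27, SE 0.0762, adjusted p = 4.4e-09), and Cers4, a ceramide synthase, went from 83.1 and 83.5 to 15.8 and 15.6 CPM.

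Other metabolic lists leaned in neither direction, where all tested genes rose in 21.9% and fell in 24.5%. NRF2 target and glutathione genes rose in 13 of 39 and fell in 11, with Gstm1 up from 60.7 and 56.3 to 109 and 99.7 CPM and Cbr3 down from 5.49 and 4.48 to 2.22 and 2.28 CPM. Of 16 metal-handling genes 4 rose and 5 fell, and Mt1, a metallothionein, rose from 17.4 and 14.1 to 39.1 and 30.04 CPM. Amino acid transporters rose in 5 of 23 and fell in 7. Slc7a7, of the basic amino acid exchangers, fell from 8.1 and 8.07 to 2.75 and 3.66 CPM. Creatine, arginine and polyamine genes rose in 5 of 24 and fell in 8. Gatm, which makes the creatine precursor, measured 0.574 and 0.598 CPM in the wild type and 13.3 and 12.9 CPM in the knockout (log2 change 4.47, SE 0.24, adjusted p = 1.3e-09), and Ass1, of arginine synthesis, fell from 165 and 148 to 46 and 43.7 CPM.

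Chemokines and their receptors rose in 7 of 15 and fell in 1, with a median of 0.36. Cx3cl1, fractalkine, measured 12.8 and 14.9 CPM in the wild type and 43 and 38.5 CPM in the knockout (log2 change 1.56, SE 0.0997, adjusted p = 8.9e-09). Cxcl1, an attractant of neutrophils, went from 7.66 and 6.73 to 18.2 and 17 CPM, and Ccl7, of monocytes, fell from 3.76 and 3.14 to 1.06 and 0.841 CPM. Acute inflammation and NF-kappaB feedback genes were split, with 10 of 36 risen and 12 fallen. Ptgs2, the inducible cyclooxygenase on chromosome 1, measured 382 and 416 CPM in the wild type and 82.3 and 82.7 CPM in the knockout (log2 change -2.27, SE 0.079, adjusted p = 1.1e-11). Il6 fell from 2.49 and 2.24 to 0.386 and 0.481 CPM and the leukocyte adhesion molecule Icam1 from 7.47 and 8.22 to 1.3 and 1.08 CPM, while Steap4, a metalloreductase, rose from 0.51 and 0.374 to 6.9 and 5.29 CPM. Toll-like receptor and inflammasome genes rose in 7 of 30 and fell in 8, near the shares of all tested genes. Tlr5, the flagellin receptor on chromosome 1, rose from 2.23 and 1.64 to 7.24 and 9.55 CPM. Apoptosis regulators rose in 14 of 43 and fell in 9, or 15 and 5 after centring. The necroptosis genes Ripk3 and Mlkl fell, from 5.55 and 5.68 to 1.21 and 1.02 CPM and from 21.1 and 20.03 to 5.26 and 4.45 CPM, and Bmf, a BH3-only protein, rose from 5.49 and 5.53 to 15.5 and 15.1 CPM.

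Cell junction genes rose in 13 of 36 and fell in 12. Cdh11, a mesenchymal cadherin, measured 184 and 185 CPM in the wild type and 22.8 and 17.8 CPM in the knockout (log2 change -3.18, SE 0.0953, adjusted p = 3.3e-12). Of 19 desmosome and cornified envelope genes 6 rose and 9 fell; Krt18 rose from 0.319 and 0.747 to 2.37 and 2.52 CPM and Krt7 fell from 3.51 and 3.59 to 0.579 and 1.08 CPM. Keratinocyte and epithelial markers summed to 209 and 204 CPM in the wild type and 178 and 180 CPM in the knockout, with Cldn4, Esrp1 and Grhl2 without a count. Most of that sum was Perp, which fell from 172 and 166 to 150 and 147 CPM. Of 7 tested, 2 rose and 3 fell. The risen ones were Krt14, from 0.128 and 0.149 to 6.13 and 7.81 CPM, and Cdh1, from 10.3 and 11.4 to 16.2 and 19.7 CPM. Caveolae genes rose in 6 of 18 and fell in 9, with 5 fallen when knockout library 1 was left out, and Ehd3 fell from 2.68 and 2.24 to 0.483 and 0.3004 CPM. Stem and progenitor surface markers fell in 11 of 26 and rose in 6, with a median of -0.55. Kit, the stem cell factor receptor, measured 0.829 and 0.598 CPM in the wild type and 22.3 and 24.3 CPM in the knockout (log2 change 4.99, SE 0.237, adjusted p = 3.3e-10), Pdgfra rose from 2.68 and 2.77 to 24.3 and 19.6 CPM, and Eng, endoglin, fell from 58.2 and 67.2 to 4.44 and 4.33 CPM. Melanocyte markers, which include Kit, rose in 1 and fell in 1 of 3 tested, from a summed 4.79 and 4.93 CPM to 24.96 and 26.4 CPM, and Dct and Tyr had no count. Most of the knockout sum was Kit, and the fallen member, Mitf, went from 2.87 and 3.21 to 1.64 and 1.14 CPM.

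Synapse organisation genes fell in 15 of 37 and rose in 6, with a median of -0.28. Shank2, a postsynaptic scaffold, went from 5.87 and 7.47 to 0.0483 and 0.601 CPM and Syt1, a calcium sensor of vesicle release, from 6.95 and 7.77 to 0.628 and 0.841 CPM. Neuron markers fell in 3 of 4 tested, from a summed 269 and 302 CPM to 112 and 127 CPM. Most of that sum was Map2, at 225 and 260 CPM in the wild type and 86 and 104 CPM in the knockout. Rbfox3, Snap25, Elavl4, Nefl and Dcx were without a count, and the part of neurons was not tested. Of 49 primary cilium genes, 11 rose and 8 fell; 7 rose and 4 fell without knockout library 1, 4 fell without knockout library 2 and 5 fell after centring. With all libraries, the shares of primary cilium genes were 22.4% risen and 16.3% fallen, against 21.9% and 24.5% of all tested genes. The ciliary transport gene Ift81 rose from 16.5 and 15 to 26.5 and 29.1 CPM. Of 11 motile cilium genes, 1 rose and 2 fell, and 0 rose when any 1 library was left out; 1 fell without wild-type library 2, without knockout library 2 or after centring. Rsph1, a radial spoke protein, was at 2.49 and 2.39 CPM in the wild-type pair, and the knockout pair held 3 counts or fewer.

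Circadian clock genes fell in 10 of 24 and rose in 3; 5 rose without wild-type library 2 and 5 fell without knockout library 2. Rora, an activator of the clock on chromosome 9, measured 26.1 and 36.2 CPM in the wild type and 8.54 and 8.17 CPM in the knockout (log2 change -1.89, SE 0.137, adjusted p = 3.7e-08), and Nfil3, a repressor, rose from 18.8 and 18.4 to 33.8 and 27.6 CPM. Lamina and nuclear envelope genes rose in 4 of 19 and fell in 6, or 2 and 4 after centring; 3 fell without knockout library 1 and 2 without knockout library 2. Lmnb1, lamin B1 on chromosome 18, measured 92.1 and 91.9 CPM in the wild type and 182 and 204 CPM in the knockout (log2 change 1.07, SE 0.0717, adjusted p = 1.5e-08), a change of 0.53 after centring. Of 36 long noncoding and small RNA host genes, 7 rose and 8 fell, with 5 fallen without knockout library 2 and 4 after centring. With all libraries, the shares of noncoding genes risen and fallen were near those of all tested genes. Meg3, an imprinted RNA, fell from 18.9 and 19.4 to 4.83 and 3.42 CPM. Of 13 mitochondrially encoded messenger RNAs, 12 fell, with a median of -0.84. Of these, mt-Co1, with the largest fall in CPM, measured 3521 and 4711 CPM in the wild type and 2903 and 2632 CPM in the knockout (log2 change -0.57, SE 0.118, adjusted p = 0.001), and mt-Co2, another oxidase subunit, went from 186 and 235 to 94.8 and 80.1 CPM. The share of all counts on mitochondrial genes was 1.11% and 1.38% in the wild type and 0.892% and 0.798% in the knockout, and the part of RNA quality in these values was not tested.

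For the 5 largest rises and 5 largest falls in CPM, the change in the E12 pair was set against that in the E47 pair by a test of the difference itself. It differed in 9 of the 10, and Vim was the exception, at 0.49 in the E12 and 0.52 in the E47 knockout (difference -0.03, SE 0.0888, adjusted p = 0.82). Ndnf changed by -2.32 in the E12 and by 2.30 in the E47 knockout, where it went from 239 and 253 to 1226 and 1203 CPM. Flna rose in the E12 knockout and fell in the E47 knockout, by -0.61. Sparc and Cemip fell in the E12 knockout and rose by 0.20 and 0.28 in the E47 knockout. Thbs1 and Ccn2 fell in both, by -0.46 and -0.37 in the E47 knockout. The wild types did not start from the same level in all of these genes. Ndnf measured 2405 and 2544 CPM in the E12 WT against 239 and 253 CPM in the E47 WT. Sparc measured 9846 and 9229 against 6582 and 6254 CPM, and Cemip 3895 and 4306 against 2635 and 2745 CPM. In Vim the levels were closer, 3778 and 3623 against 3503 and 3409 CPM. The part of these starting levels in the compared changes was not tested.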

How the data were processed

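Messenger RNA was measured in 8 libraries of cultured mouse cells labelled as aortic smooth muscle cells, 2 per genotype. Per the labels, cells were lysed in Trizol and polyA libraries were made without strand information. The submitters' processing notes name FastQC, HISAT, featureCounts and the build GRCm38 (mm10), with versions and settings not given in these sources. What the authors deposited is a table of raw integer counts for each gene. With edgeR 4.0.16 in R 4.3.3, counts were filtered by its low-count filter (13992 of 55353 genes kept), scaled by TMM and fitted in a 4-group model without covariates. The quasi-likelihood F test gave E12 KO against E12 WT, with Benjamini-Hochberg adjustment over the 13992 genes. The spread had 4 residual degrees of freedom and a common biological coefficient of variation of 0.0598. CPM values use TMM-scaled totals, and the SE is the size of the log2 change over the root of F. On simulated counts for the same comparison and 13992 genes, 40 of 50 genes changed 1.5-fold and 45 of 50 changed 2-fold were recovered, with 15 false calls. Only 50 genes were changed at each fold of 1.5, 2, 4 and 8, and no chromosome was shifted. In the data 6491 genes passed the test, so false calls under such wide change were not measured.

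Positions and exon overlaps came from GENCODE annotation of GRCm38, which matched 13797 of the tested symbols. There were 87 families defined by symbol patterns, of which those with at least 8 tested genes were ranked and 8 at each end described, 42 function lists and 15 marker lists. Named genes were the 12 largest rises and falls in CPM with separate pairs, up to 5 called members per described set with the largest log2 change and at least 2 CPM in the higher group, members needed to show both directions, and Tcf3. Some genes chosen this way are not reported here. Promoters are shown for chromosomes other than 18. The members and lists were chosen with earlier results of these data known. No fold is given where a group held 3 counts or fewer, and a median is the same whatever size such a gene's fold has on its side. The 3-count limit covers counting error only, whereas the SE and p-values rest on the spread between libraries. Alternatives were other scalings, filters and tools (DESeq2 1.42.0), the E12 libraries alone, each library left out and a fold threshold of 1.5; chromosome centring and leaving out chromosomes 1, 9 and 18 were added after seeing the data. Figures were drawn with matplotlib 3.10.9.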

Additional observations from a re-analysis of the deposited data

Results flagged for a closer look

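The change in the E12 knockout differed from that in the E47 knockout, by the edgeR quasi-likelihood test of the difference with Benjamini-Hochberg adjustment over all tested genes, for 9 of the 10 genes compared. The difference, E12 change minus E47 change on the log2 scale, was 0.37 for Col1a2 (adjusted p = 0.0039), 1.82 for Dpysl3 (adjusted p = 3.1e-09), 1.07 for Flna (adjusted p = 5.2e-06) and 1.11 for Fscn1 (adjusted p = 3.4e-07). It was -0.45 for Thbs1 (adjusted p = 0.0050), -1.16 for Sparc (adjusted p = 8.4e-08), -1.80 for Cemip (adjusted p = 2.1e-09), -0.88 for Ccn2 (adjusted p = 1.1e-06) and -4.62 for Ndnf (adjusted p = 1.3e-13). The genes were taken for their large change in the E12 knockout, so a larger E12 change is partly fixed by that choice. In Flna, Sparc, Cemip and Ndnf the E47 change passed the test in the other direction. The E12 and E47 wild types also differed in level, for Ndnf 2405 and 2544 against 239 and 253 CPM. The part of such starting levels in the differences was not tested.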

How the results depend on the processing

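Against a fold of 1.5 (edgeR glmTreat), 562 genes were higher and 1117 lower. With only genes of at least 2 CPM on average, 328 were more than 2-fold higher and 655 more than 2-fold lower, with fewer low genes tested. Leaving out 1 library at a time gave 2453 to 2841 higher, 2824 to 3176 lower, 498 to 570 more than 2-fold higher and 1059 to 1095 more than 2-fold lower. The other alternatives (scaling by RLE or upper quartile, DESeq2, no filter, the E12 libraries alone, chromosome centring and leaving out chromosomes 1, 9 and 18) kept all 4 counts within 1.5 times; DESeq2 gave the fewest lower genes outside the library and chromosome settings, 2906, with 2350 higher. No call changed direction except for 25 genes under chromosome centring. Of 297 named genes, 275 kept their direction and call under 11 alternatives and 22 lost the call under at least 1. Syne1, lower otherwise, ranged from -1.07 to 0.079 when 1 library was left out, the latter without wild-type library 2 (adjusted p = 0.59), and the cause was not tested. No paired analysis was possible because the labels give no replicate number that ties a knockout to a wild-type library. The precision rests on 2 libraries per genotype, and low genes are limited by depth.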
